A study of Homo sapiens with 83 samples.

Results

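The transcripts described here are those of 35 genes of the core autophagy machinery and its cargo receptors, picked by gene symbol from the 60237 genes of the expression table. They comprise the ULK complex (5 genes), the class III PI3K complex (6), lipid transfer and scaffold proteins (5), the conjugation enzymes (6), the ATG4 proteases (4), the ATG8 family (5) and the cargo receptors (4). RNA was sequenced from SHEP and SKNAS, human neuroblastoma lines. Both make N-MYC-ER at all times, in which N-MYC is joined to the hormone-binding part of the estrogen receptor and so enters the nucleus when 4-hydroxytamoxifen (4OHT) is given. MYC-ON cells received 4OHT and MYC-OFF cells received ethanol for 24 h, all cells then received dexamethasone to entrain their clocks, and CT counts the hours since dexamethasone. There were 28 libraries each of SHEP MYC-OFF and SHEP MYC-ON, from 2 time series per condition, 14 of SKNAS MYC-OFF and 13 of SKNAS MYC-ON, from 1 series per condition, taken every 4 h from CT24 to CT76, or to CT72 in SKNAS MYC-ON. The question of the study was how active N-MYC alters transcript levels and their daily rhythm. No group lacked the fusion gene or dexamethasone.

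Autophagy encloses part of the cytoplasm in a double membrane, the autophagosome, and delivers it to the lysosome for breakdown. The ULK kinase complex starts the process and the class III PI3K complex marks the growing membrane with a phosphoinositide. ATG9A vesicles and the ATG2 proteins bring in lipid, WIPI proteins read the phosphoinositide, and an enzyme cascade couples ATG8 proteins to the membrane. Cargo receptors hold both the cargo and an ATG8 protein. In tumour cells autophagy is known as a source of recycled nutrients, and N-MYC belongs to a family of growth-promoting transcription factors that bind DNA at the E-box, CACGTG.

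Values are TPM, a length-corrected level scaled to the same total in every library, so levels of different genes can be compared and the depth of single libraries is unknown. Differences are on the log2(TPM + 1) scale, which understates changes of genes at low TPM. A member was called higher or lower between conditions, lines or MYC effects at an adjusted p of 0.05 or less and a log2 difference of at least 0.15. The adjusted p is from limma, with Benjamini-Hochberg over all genes tested. Changes are named 1.5-fold at the same adjusted p and a log2 difference of at least 0.66. That is the cut of the study, and it is stricter than a ratio of 1.5. Linear trends, their difference and 24 h rhythms were called at an adjusted p of 0.05 or less alone. Time points served as replicates, and those of 1 series come from 1 experiment. With CT as a factor, the p-values between conditions measure the spread of their difference across time points. In SHEP the spread between the series at the same CT enters as well. In the trend and rhythm fits it is the spread around the fitted curve. For SKNAS no repeat of the experiment enters. Less RNA of a gene per cell and fewer cells that make it cannot be told apart in bulk RNA.

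The SHEP libraries were alike in scale, with library medians of log2(TPM + 1) between 3.93 and 4.17. Those of SKNAS were not: medians ran from 2.97 to 4.38 in MYC-OFF and from 2.76 to 4.26 in MYC-ON, and 10 of 14 MYC-OFF but 3 of 13 MYC-ON libraries reached 3.8. For many members the SKNAS difference is therefore given also with the library median as a covariate. Other SKNAS differences, among them those of single genes that are not members, are given without it. MYCN reads, which include those of the fusion, had medians of 560 TPM in MYC-OFF and 353 TPM in MYC-ON for SHEP, and of 612 and 309 TPM for SKNAS. Of 10 adrenergic neuroblastoma markers, 3 passed the filter of a mean of 1 TPM in SHEP and 7 in SKNAS, and of 9 mesenchymal markers 9 and 8 did. The leukocyte marker PTPRC reached at most 0.0118 TPM in SHEP but had medians of 94.5 TPM (MYC-OFF) and 17.7 TPM (MYC-ON) in SKNAS, and 6 of the 7 adrenergic markers tested there were lower in MYC-ON. Their part in the SKNAS results was not tested.

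In SHEP, more of the autophagy transcripts were lower than higher with activated N-MYC-ER. All 35 passed the filter, 19 were lower and 9 higher in MYC-ON, and 7 were not called. Of all 14362 genes tested, 38.9% were lower and 33.0% higher, against 54.3% and 25.7% of the members. Changes of 1.5-fold were found downward in 7 members (20.0%, against 11.4% of all genes) and upward in none (against 9.39%), with 29 of 35 members at an unadjusted p under 0.05, against 78.6% of all genes. The median member difference was -0.20 on the log2 scale, beside -0.036 over all genes. In 6 members (17.1%, against 6.36% of all genes) every MYC-ON library lay below every MYC-OFF library, and in 1 member (2.86%, against 6.11%) every one lay above. In each SHEP series alone, 7 of the 9 members were again higher and 16 of the 19 lower.

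In SKNAS, 34 members passed the filter, 17 were lower, 1 was higher and 16 were not called. Of all 13886 genes tested, 34.4% were lower and 13.7% higher, against 17 and 1 (2.94%) of the 34 members. Downward changes of 1.5-fold were found in 12 members (35.3%, against 23.8% of all genes). Every MYC-ON library lay below every MYC-OFF library in 2 members (5.88%, against 2.09% of all genes) and above in none (against 2.32%). The median of all genes itself lay at -0.29 on the log2 scale, and that of the members at -0.41. The split of calls moved with the scaling. Rescaling by the median of ratios brought the median of all genes to 0.032. After it, 6 members were higher and 9 lower (17.6% and 26.5%, against 27.6% and 23.9% of all genes). With the library median as a covariate 6 were higher and 14 lower (17.6% and 41.2%, against 28.3% and 26.1%). Over all genes, 1903 were higher and 4772 lower as deposited, and 3833 higher and 3315 lower after rescaling. Downward changes of 1.5-fold were left in 3 members (8.82%, against 12.4% of all genes) after rescaling. With the covariate they were left in 4 (11.8%, against 11.7%). The members called in 1 direction under all 3 were ATG101, higher, and ULK1, ATG13, WIPI1, ATG10, NBR1, OPTN and TAX1BP1, lower.

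As deposited, ATG101 was called higher and 15 members were called lower in both lines. Of the 15, 5 changed 1.5-fold in both: ULK1, WIPI1, GABARAP, MAP1LC3A and OPTN. In SKNAS, 7 of the 15 were called lower also after rescaling and with the covariate. GABARAP and MAP1LC3A were not called there after rescaling, and BECN1 and PIK3C3 turned above 0. With the covariate the SKNAS fall of WIPI1 was less than 1.5-fold. The calls as deposited are 2.94% and 44.1% of the 34 members tested in both lines (14.7% for the 1.5-fold falls), against 11.5%, 24.1% and 7.30% of 12306 genes. In Gencode 44 (GRCh38), ATG101 and the 5 are protein-coding genes on chromosome 12 (ATG101, 52069246 to 52077495, and ULK1, 131894622 to 131923150), chromosome 17 (GABARAP, 7240008 to 7242449, and WIPI1, 68420948 to 68457513), chromosome 20 (MAP1LC3A, 34546854 to 34560345) and chromosome 10 (OPTN, 13099449 to 13138308).

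**Figure D1:**
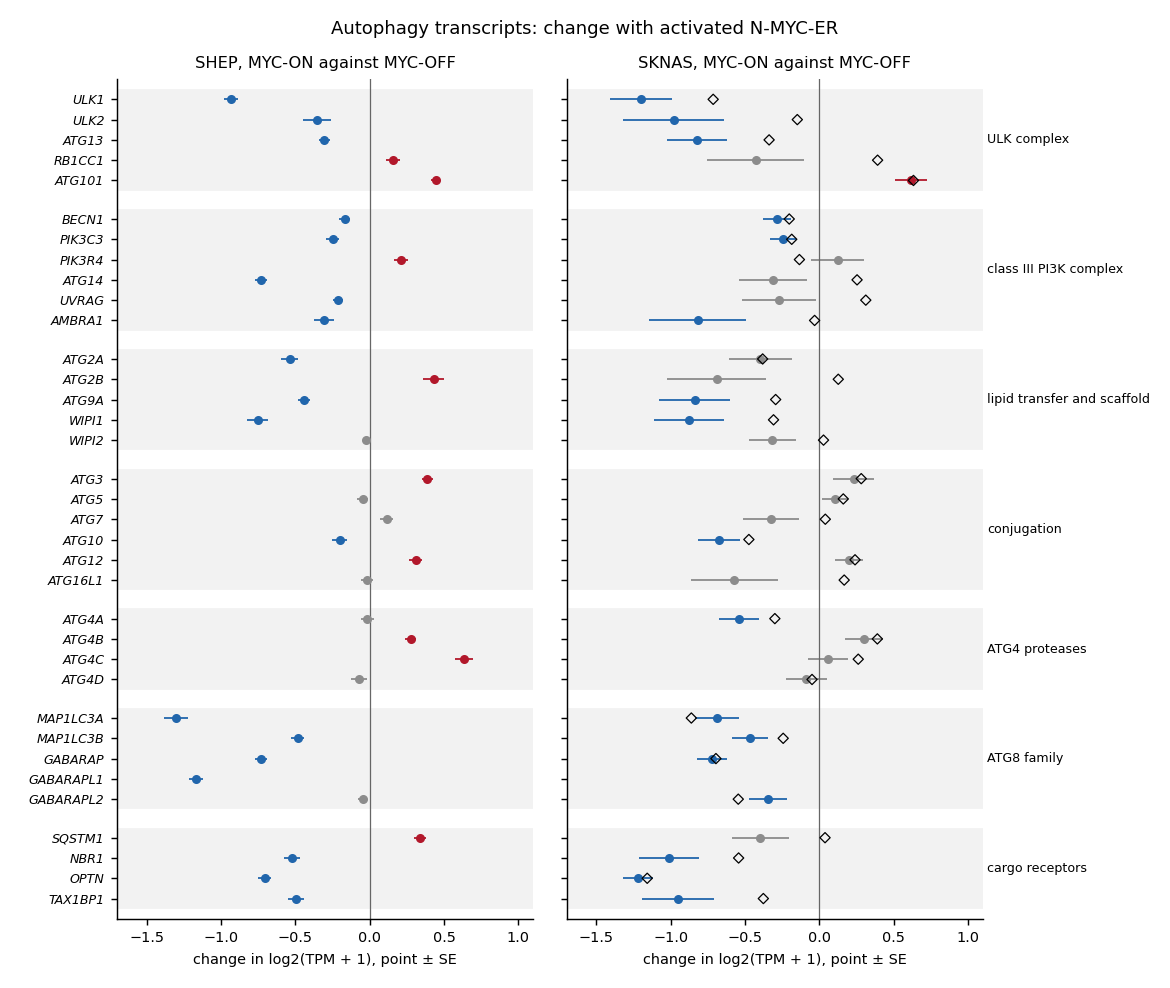
Difference between MYC-ON and MYC-OFF in log2(TPM + 1) (horizontal axis, point ± SE) for each member, in SHEP (left) and SKNAS (right); red points were higher, blue points lower and grey points not called, and open diamonds in SKNAS are the values with the library median as a covariate. GABARAP and OPTN lie left of 0 in both lines with little change under the covariate, while ATG101 is the member with a red point in both; GABARAPL1 has no SKNAS point because it was under the filter.

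The upstream sequences of a few members are shown because N-MYC binds the E-box. ATG3 and ATG14 each hold 1 in the 250 bases before the start. ULK1 and GABARAPL1, which fell in SHEP without overlap, hold none in these bases. The members shown were picked with their values known, and no link between motif and change was tested for these sequences. They are from RefSeq (GRCh38.p14), 5′ to 3′ on the gene's strand up to the base before the start, at chr3:112561963-112562212 (ATG3, minus strand), chr14:55411831-55412080 (ATG14, minus strand), chr12:131894372-131894621 (ULK1, plus strand) and chr12:10212627-10212876 (GABARAPL1, plus strand). Capitals mark CACGTG, whose first base lies 18 bases before the start in ATG3 and 21 bases in ATG14. A second CACGTG of ATG3 begins 5 bases after the start. In Gencode the genes ATG3 and GABARAPL1 start further upstream than in RefSeq.
ATG3: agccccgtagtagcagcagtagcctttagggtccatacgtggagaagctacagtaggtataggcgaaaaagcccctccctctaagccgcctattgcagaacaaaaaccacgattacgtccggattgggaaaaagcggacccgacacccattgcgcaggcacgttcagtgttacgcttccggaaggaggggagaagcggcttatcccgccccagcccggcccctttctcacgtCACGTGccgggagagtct
ATG14: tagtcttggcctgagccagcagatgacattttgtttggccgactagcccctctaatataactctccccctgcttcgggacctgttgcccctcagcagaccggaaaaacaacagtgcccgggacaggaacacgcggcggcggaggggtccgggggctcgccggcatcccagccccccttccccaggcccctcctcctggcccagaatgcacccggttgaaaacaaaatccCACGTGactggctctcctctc
ULK1: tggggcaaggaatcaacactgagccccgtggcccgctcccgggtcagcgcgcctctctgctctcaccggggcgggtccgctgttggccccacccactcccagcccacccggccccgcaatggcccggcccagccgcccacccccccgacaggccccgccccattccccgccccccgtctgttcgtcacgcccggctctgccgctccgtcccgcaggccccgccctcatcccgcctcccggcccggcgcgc
GABARAPL1: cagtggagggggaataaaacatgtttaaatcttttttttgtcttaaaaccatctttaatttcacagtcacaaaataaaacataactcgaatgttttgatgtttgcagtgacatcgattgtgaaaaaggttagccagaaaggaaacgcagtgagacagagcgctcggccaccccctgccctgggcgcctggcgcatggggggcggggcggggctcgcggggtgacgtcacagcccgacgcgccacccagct

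Of the 35 members, 31 had an entry among the promoter windows, which run from 250 bases before to 50 after the start; MAP1LC3A, RB1CC1, UVRAG and ATG4D had none. Only the first window listed for a gene was searched. For some members, among them ATG16L1, ATG5, BECN1, MAP1LC3B and AMBRA1, it lies well downstream of the Gencode gene start, and other starts were not searched. CACGTG, which reads the same on both strands, was found in 2 of the 31 and in 7.43% of 27305 windows. The longer CLEAR palindrome of lysosomal genes, CACGTG with GT before it and AC after it, was found in 0 of the 31 and in 0.381% of all windows. A match is a stretch of letters and not a measured binding site.

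The kinase ULK1 was the member of the ULK complex that fell most, and the same complex held the member that rose in both lines, ATG101, which stabilises ATG13. ULK1 had 18.5, 22.4 and 29.1 TPM (lowest, median and highest library) in SHEP MYC-OFF and 7.06, 11.1 and 15.0 in MYC-ON, so the groups did not overlap. The difference was -0.94 ± 0.05 (SE; adjusted p = 1.8e-22). In SKNAS the libraries of ULK1 ran from 5.54 to 30.9 TPM with a median of 23.4 in MYC-OFF and from 3.01 to 12.99 with a median of 6.67 in MYC-ON, which overlap, and the difference was -1.20 ± 0.21 (adjusted p = 0.00025), or -0.71 with the library median as a covariate. ULK1 was lower in MYC-ON at all 28 matched time points in SHEP.

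ATG101 rose from 53.8, 60.5 and 67.9 TPM in SHEP MYC-OFF to 69.1, 83.5 and 105 TPM in SHEP MYC-ON. It was the member with every MYC-ON library above every MYC-OFF library (0.44 ± 0.03, adjusted p = 6.8e-17). In SKNAS it had 45.2, 59.4 and 65.8 TPM in MYC-OFF and 57.7, 87.9 and 108 TPM in MYC-ON (0.62 ± 0.11, adjusted p = 0.00028), higher in MYC-ON at 12 of 13 matched time points. Its SKNAS difference was 0.63 with the library median as a covariate.

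The other subunits moved less evenly. ATG13, the regulatory subunit that binds ATG101, fell from a median of 56.03 TPM (47.2 to 73.0) to 45.04 TPM (35.6 to 52.9) in SHEP (-0.30 ± 0.04, adjusted p = 5.5e-10) and from 49.1 TPM (17.2 to 61.3) to 20.2 TPM (9.80 to 39.6) in SKNAS (-0.82 ± 0.20, adjusted p = 0.0041, and -0.34 with the covariate). ATG13 groups overlapped in both lines. ULK2, the second kinase, was scarce in SHEP, with a median of 1.45 TPM (0.853 to 3.20) in MYC-OFF and 0.772 TPM (0.313 to 2.43) in MYC-ON (-0.35 ± 0.09, adjusted p = 0.00066). This ULK2 call was not made with the covariate (-0.20, adjusted p = 0.10) or in series 2 alone (-0.15, adjusted p = 0.23, against -0.56 in series 1 alone). In SKNAS ULK2 had 11.1 TPM (2.00 to 17.6) and 2.995 TPM (1.00 to 13.1), a difference of -0.98 ± 0.34 (adjusted p = 0.026) that came to -0.15 with the covariate. RB1CC1, the scaffold FIP200, rose in SHEP by 0.16 ± 0.05 (adjusted p = 0.0027), a call not made in series 2 alone (0.13, adjusted p = 0.14).

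The make-up of the complex at the RNA level is given as sums and shares of TPM, which were not tested. The summed TPM of the 5 genes was 169 ± 8.28 (SD, n = 28) for MYC-OFF in SHEP and 172 ± 10.1 (n = 28) in MYC-ON. ULK1 made up 13.3% ± 1.42 of that sum in SHEP MYC-OFF and 6.57% ± 1.08 in MYC-ON, and ATG101 36.3% ± 2.42 and 48.6% ± 3.07. In SKNAS the share of ULK1 was 12.4% ± 2.98 (n = 14) in MYC-OFF and 5.09% ± 1.23 (n = 13) in MYC-ON.

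The class III PI3K complex fell in 5 of 6 members in SHEP, against 38.9% of all genes, and in 3 of 6 in SKNAS, against 34.4%. Of the 3 in SKNAS, BECN1 and PIK3C3 lay above 0 after rescaling. ATG14, the subunit that directs the complex to the start of the autophagosome, had 20.4, 25.9 and 32.9 TPM in SHEP MYC-OFF and 12.6, 15.5 and 18.4 TPM in MYC-ON, without overlap (-0.73 ± 0.04, adjusted p = 6.2e-22). In SKNAS ATG14 was low, at medians of 8.58 TPM (2.36 to 11.1) and 5.88 TPM (2.08 to 12.8), and was not called (-0.31 ± 0.23, adjusted p = 0.27). With the covariate its value there was 0.25, of the opposite sign.

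AMBRA1, a positive regulator of the complex, went from 18.8 TPM (14.5 to 27.8) to 15.5 TPM (7.52 to 24.0) in SHEP (-0.31 ± 0.07, adjusted p = 7.7e-05) and from 10.0 TPM (0.657 to 18.5) to 4.42 TPM (0.888 to 10.8) in SKNAS (-0.82 ± 0.33, adjusted p = 0.049). The SKNAS value of AMBRA1 was -0.031 with the covariate. The core subunits BECN1 and PIK3C3, the lipid kinase, were lower in both lines by 0.17 to 0.28 on the log2 scale: BECN1 differed by -0.17 ± 0.03 in SHEP and -0.28 ± 0.09 in SKNAS, and PIK3C3 by -0.25 ± 0.04 and -0.24 ± 0.09. After rescaling, BECN1 was at 0.082 and PIK3C3 at 0.12 in SKNAS. In SHEP, BECN1 was at -0.26 in series 2 alone but was not called in series 1 alone (-0.079, adjusted p = 0.090), nor with the covariate or after rescaling, both at -0.12. The pseudokinase PIK3R4 was the member that rose in SHEP (0.21 ± 0.05, adjusted p = 0.0001, but 0.17 with adjusted p = 0.052 in series 2 alone), and UVRAG, which replaces ATG14 in a late-acting form of the complex, fell there by 0.22 on the log2 scale, which with the covariate came to -0.147, inside the threshold of 0.15.

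Among the lipid transfer and scaffold genes the ATG2 pair went opposite ways in SHEP. ATG2A was lower (-0.54 ± 0.06, adjusted p = 1.4e-11) and ATG2B higher (0.43 ± 0.07, adjusted p = 4.4e-07), the latter at 27 of 28 matched time points. Neither was called in SKNAS, where their values were -0.40 ± 0.21 and -0.69 ± 0.33. WIPI1 fell in both lines and its relative WIPI2 in neither: WIPI2 had medians of 102 TPM in SHEP MYC-OFF and 103 TPM in MYC-ON (-0.02 ± 0.02, adjusted p = 0.40).

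WIPI1 had 46.7, 53.2 and 65.5 TPM in SHEP MYC-OFF and 22.2, 30.4 and 55.5 TPM in MYC-ON (-0.75 ± 0.07, adjusted p = 5.8e-13). The groups overlapped, with the high MYC-ON values late in the series. In SKNAS WIPI1 ran from 4.57 to 23.9 TPM with a median of 15.5 in MYC-OFF and from 2.70 to 13.9 with a median of 6.39 in MYC-ON (-0.88 ± 0.24, adjusted p = 0.0068, and -0.31 with the covariate). ATG9A, the transmembrane lipid scramblase, fell from 40.8 TPM (33.8 to 51.4) to 31.5 TPM (20.2 to 36.7) in SHEP (-0.44 ± 0.04, adjusted p = 5.3e-14). In SKNAS ATG9A had 45.3 TPM (7.90 to 63.3) and 17.1 TPM (12.4 to 37.3), a difference of -0.84 ± 0.24 (adjusted p = 0.0098) that was -0.29 with the covariate (adjusted p = 0.071) and -0.19 from CT52 on alone (adjusted p = 0.81).

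The conjugation enzymes and the ATG4 proteases held 4 of the 9 rises in SHEP, and none of them changed 1.5-fold there. In SHEP, ATG3, the E2 enzyme that transfers ATG8 proteins to lipid, rose at all 28 matched time points, from a median of 49.8 TPM (43.8 to 57.5) to 64.3 TPM (54.0 to 88.3). The difference was 0.39 ± 0.04 (adjusted p = 9.1e-13), and in SKNAS it was 0.23 ± 0.14 (adjusted p = 0.17). ATG12, the ubiquitin-like protein, rose in SHEP by 0.31 ± 0.04 (adjusted p = 1.2e-08). ATG5, its acceptor, the E1 enzyme ATG7 and ATG16L1 were not called in either line.

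ATG10, the E2 enzyme for ATG12, was the conjugation gene that fell in both lines. It had 8.25 TPM (6.50 to 12.4) and 6.83 TPM (5.00 to 10.2) in SHEP (-0.20 ± 0.05, adjusted p = 0.00057), and 9.70 TPM (6.32 to 13.01) and 5.74 TPM (2.56 to 10.5) in SKNAS (-0.68 ± 0.14, adjusted p = 0.0013). In SHEP series 2 alone ATG10 was not called (-0.13, adjusted p = 0.20, against -0.28 in series 1 alone). It was lower in MYC-ON at all 13 matched time points in SKNAS. Of the ATG4 proteases, which trim ATG8 proteins and free them from the membrane again, ATG4C (0.64 ± 0.06, adjusted p = 9.2e-13) and ATG4B (0.27 ± 0.04, adjusted p = 2.5e-08) rose in SHEP, the first of them with the highest value of any member there. ATG4A fell in SKNAS (-0.54 ± 0.14, adjusted p = 0.0044, but -0.20 with adjusted p = 0.11 after rescaling and -0.23 with adjusted p = 0.23 in libraries with a median of at least 3.8), where ATG4C was not called (0.06 ± 0.13), and ATG4D was called in neither line.

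In SHEP the ATG8 family had the lowest median difference of any role, -0.73, with 4 of 5 members lower, against 38.9% of all genes. As deposited, its 4 members tested in SKNAS were all lower, against 34.4% of all genes. After rescaling none of the 4 was called there, and GABARAPL2 lay at 0.026. The summed TPM of its 5 genes was 713 ± 28.6 in SHEP MYC-OFF and 464 ± 35.6 in MYC-ON, and 691 ± 56.4 in SKNAS MYC-OFF and 444 ± 24.8 in MYC-ON. GABARAP was the most abundant of them in all 4 groups, with 279, 326 and 381 TPM in SHEP MYC-OFF and 152, 200 and 234 TPM in MYC-ON. In SKNAS GABARAP had 323, 470 and 543 TPM in MYC-OFF and 210, 275 and 311 TPM in MYC-ON. The groups of GABARAP did not overlap in either line, and the difference was -0.73 ± 0.04 (adjusted p = 6.0e-22) in SHEP and -0.72 ± 0.10 (adjusted p = 3.8e-05) in SKNAS. It was -0.70 with the covariate and -0.35 after rescaling (adjusted p = 0.065).

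MAP1LC3A, which encodes LC3A, had 17.3, 23.1 and 29.8 TPM in SHEP MYC-OFF and 5.44, 8.05 and 14.8 TPM in MYC-ON, without overlap. Its difference of -1.30 ± 0.08 (adjusted p = 3.7e-19) was the largest of all members in SHEP. In SKNAS MAP1LC3A ran from 18.8 to 52.6 TPM with a median of 27.2 in MYC-OFF and from 7.77 to 27.7 with a median of 19.7 in MYC-ON (-0.69 ± 0.15, adjusted p = 0.0016), and was lower at 12 of 13 matched time points. After rescaling the SKNAS value was -0.32 (adjusted p = 0.26). MAP1LC3B, which encodes LC3B, the usual marker protein of autophagosomes, fell from 112 TPM (98.7 to 141) to 79.5 TPM (60.04 to 104) in SHEP (-0.49 ± 0.04, adjusted p = 8.8e-14) and from 31.0 TPM (19.3 to 36.3) to 22.7 TPM (13.3 to 31.1) in SKNAS (-0.47 ± 0.12, adjusted p = 0.0049). That SKNAS call of MAP1LC3B was not made after rescaling (-0.11, adjusted p = 0.29) or in libraries with a median of at least 3.8 and CT as a linear term (-0.21, adjusted p = 0.072), and the value was -0.24 with the covariate. Reads of MAP1LC3B and of its near-identical copy MAP1LC3B2 can be split by the quantification, and MAP1LC3B2 had at most 1.40 TPM in any library.

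GABARAPL1 separated the lines. In SHEP it had 102, 124 and 141 TPM in MYC-OFF and 43.2, 52.3 and 76.99 TPM in MYC-ON, without overlap (-1.17 ± 0.05, adjusted p = 1.3e-25). In SKNAS it was at most 1.57 TPM in any library, with means of 0.372 TPM in MYC-OFF and 0.0788 TPM in MYC-ON, and was under the filter. Its close copy GABARAPL3 had at most 2.05 TPM in any library. GABARAPL2, whose protein GATE-16 is also found at the Golgi, was not called in SHEP, at 110, 122 and 160 TPM in MYC-OFF and 97.4, 123 and 134 TPM in MYC-ON (-0.05 ± 0.03, adjusted p = 0.15). In SKNAS GABARAPL2 had 126, 151 and 336 TPM in MYC-OFF and 102, 123 and 158 TPM in MYC-ON (-0.35 ± 0.13, adjusted p = 0.034, and 0.026 after rescaling).

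**Figure D2:**
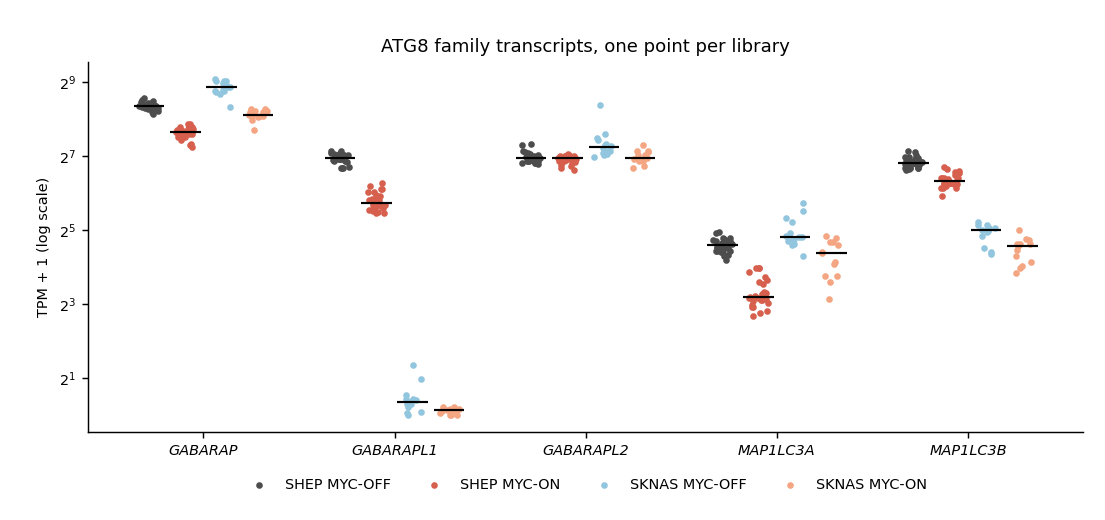
Level of the 5 ATG8 family transcripts as TPM + 1 on a log scale (vertical axis), 1 point per library, with the 4 groups side by side (SHEP, then SKNAS, MYC-OFF before MYC-ON) and a bar at each median. GABARAP MYC-ON points lie below all MYC-OFF points of the same line, GABARAPL2 points of SHEP coincide, and GABARAPL1 lies near the bottom of the axis in SKNAS.

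The mix of ATG8 transcripts changed with the falls. In SHEP the share of GABARAPL2 in the summed TPM was 17.5% ± 1.47 in MYC-OFF and 26.0% ± 1.497 in MYC-ON, that of GABARAPL1 17.3% ± 1.73 and 11.8% ± 1.73, and that of MAP1LC3A 3.25% ± 0.401 and 1.95% ± 0.544. The share of MAP1LC3B was 15.95% ± 1.22 and 17.6% ± 1.96. In SKNAS, GABARAP alone made up 67.4% ± 6.41 in MYC-OFF and 62.6% ± 4.03 in MYC-ON, and MAP1LC3B 4.31% ± 0.915 and 4.80% ± 1.32.

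Of the cargo receptors, SQSTM1 (p62), which links ubiquitinated cargo to ATG8 proteins, rose in SHEP while the other 3 fell in both lines. SQSTM1 was the most abundant member of all in SHEP, with 451, 602 and 799 TPM in MYC-OFF and 563, 755 and 957 TPM in MYC-ON. The groups overlapped, and the difference was 0.34 ± 0.04 (adjusted p = 5.4e-10), with higher values in MYC-ON at 26 of 28 matched time points. In SKNAS it had 78.1, 294 and 347 TPM in MYC-OFF and 97.2, 159 and 273 TPM in MYC-ON (-0.40 ± 0.19, adjusted p = 0.099), and 0.039 with the covariate.

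OPTN, a receptor for damaged mitochondria and bacteria, had the clearest fall across both lines. It went from 117, 129 and 148 TPM to 60.3, 77.4 and 110 TPM in SHEP (-0.71 ± 0.04, adjusted p = 5.9e-19), and from 38.9, 50.9 and 57.6 TPM to 15.7, 19.7 and 26.5 TPM in SKNAS (-1.22 ± 0.10, adjusted p = 1.9e-07). In neither line did the OPTN groups overlap. The SKNAS value was -1.16 with the covariate and -0.86 after rescaling. OPTN was the single member called in SKNAS from CT52 on alone (2.94% lower, against 5.09% of all genes). From CT24 to CT48 alone, 22 members (64.7%) were lower and 3 (8.82%) higher, against 51.0% and 14.6% of all genes.

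NBR1, a receptor that acts with p62, had 36.1, 43.3 and 49.7 TPM in SHEP MYC-OFF and 20.9, 28.5 and 42.5 TPM in MYC-ON (-0.52 ± 0.05, adjusted p = 1.3e-12). In SKNAS NBR1 had 23.6, 55.4 and 74.8 TPM and 12.8, 23.6 and 46.9 TPM (-1.01 ± 0.20, adjusted p = 0.00074, and -0.54 with the covariate). TAX1BP1, a receptor for aggregated proteins, had 113, 129 and 138 TPM in SHEP MYC-OFF and 66.7, 86.6 and 137 TPM in MYC-ON (-0.49 ± 0.05, adjusted p = 1.5e-11). In SKNAS TAX1BP1 had 31.0, 100.97 and 130 TPM and 14.9, 45.8 and 110 TPM (-0.95 ± 0.24, adjusted p = 0.0046, and -0.38 with the covariate). The groups of both genes overlapped in both lines.

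SQSTM1 made up 66.5% ± 2.64 of the summed cargo receptor TPM in SHEP MYC-OFF and 79.0% ± 2.45 in MYC-ON. The sum itself was 901 ± 71.6 and 962 ± 124 TPM. In SKNAS the sum was 442 ± 139 and 274 ± 91.0 TPM, with SQSTM1 at 55.2% ± 6.18 and 65.7% ± 5.27.

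How far the SKNAS values moved with the scale of the library differed between members. ULK1, NBR1 and above all RB1CC1 were low in libraries of low median in both conditions. RB1CC1 ran from 4.40 to 33.3 TPM in MYC-OFF and from 2.88 to 41.5 TPM in MYC-ON, and its value of -0.43 ± 0.33 (adjusted p = 0.29) became 0.39 with the covariate (adjusted p = 0.0035). GABARAP and OPTN of MYC-ON lay below MYC-OFF at low and at high library medians, and ATG101 lay above it apart from 1 MYC-ON library. Among the 13 SKNAS libraries with a median of at least 3.8, with CT as a linear term, the difference was -0.77 for GABARAP, -1.03 for OPTN, -1.13 for ULK1 and 0.49 for ATG101.

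**Figure D3:**
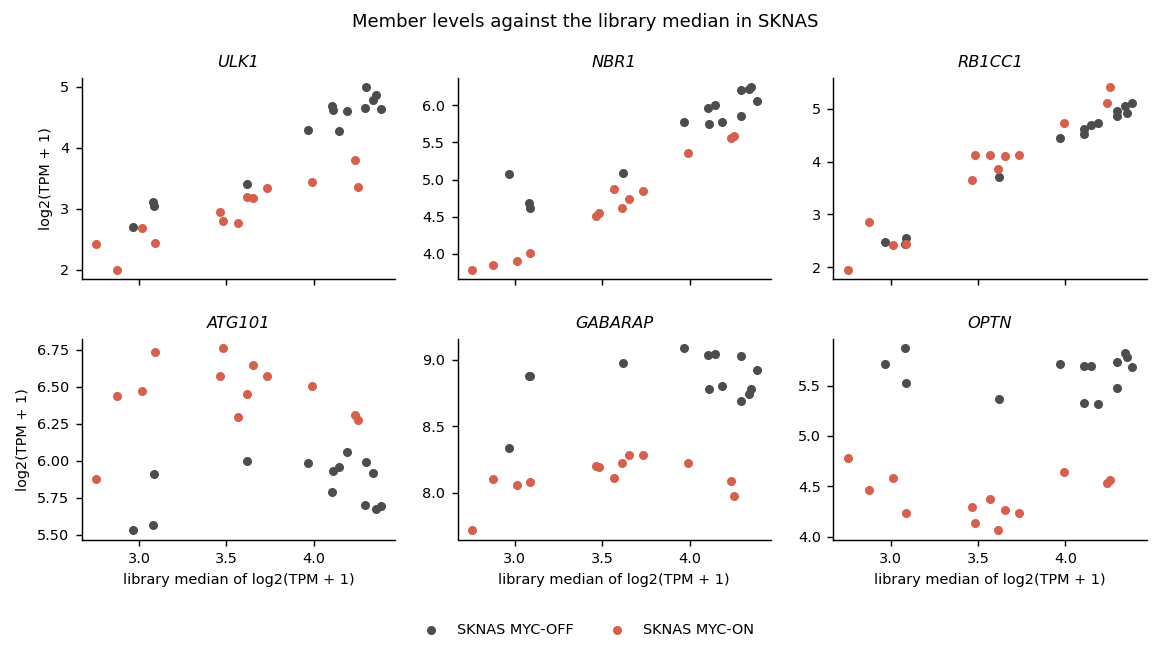
Level of 6 members in log2(TPM + 1) (vertical axes) against the library median of log2(TPM + 1) (horizontal axis) in SKNAS, 1 point per library, MYC-OFF in grey and MYC-ON in red. RB1CC1 follows the library median in both conditions, whereas the GABARAP and OPTN points of MYC-ON lie below those of MYC-OFF at all library medians from 2.76 to 4.38.

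The MYC effect was compared between lines as an interaction over the 12306 genes tested in both. It was higher in SKNAS than in SHEP for 2 members (5.88%, against 10.6% of all genes), MAP1LC3A (0.62 ± 0.15, adjusted p = 0.0008) and ATG14 (0.42 ± 0.15, adjusted p = 0.018). It was lower for 16 members (47.1%, against 38.3% of all genes). With the library median as a covariate, 7 of the 16 were still lower, 20.6% of the members against 20.8% of all genes. They were ATG2B, SQSTM1, ATG4C, ATG4A, OPTN, ATG10 and GABARAPL2. ATG2B differed by -1.12 ± 0.23 (adjusted p = 8.3e-05) and SQSTM1 by -0.73 ± 0.13 (adjusted p = 7.2e-06). With 1 SHEP series left out, 6 members (without series 1) or 7 (without series 2) were lower and 1 was higher. As deposited, no member was called higher in one line and lower in the other. With the library median as a covariate, ATG14 was called lower in SHEP and higher in SKNAS.

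The lines also differed where N-MYC-ER was inactive. In MYC-OFF, 10 members were higher and 17 lower in SKNAS than in SHEP, 29.4% and a share of 17 in 34 of the members, against 31.4% and 43.1% of all genes. Line and experiment cannot be told apart here. ULK2 (1.89 ± 0.19, adjusted p = 1.3e-10) and PIK3R4 (1.04 ± 0.11, adjusted p = 9.9e-10) were the members with the largest excess in SKNAS. WIPI1 (-1.99 ± 0.12), MAP1LC3B (-1.93 ± 0.06), ATG14 (-1.80 ± 0.13), ATG7 (-1.68 ± 0.11), UVRAG (-1.53 ± 0.13), OPTN (-1.41 ± 0.05) and SQSTM1 (-1.38 ± 0.13) were lower, all at adjusted p of 7.0e-11 or less. GABARAPL1, at a mean of 123 TPM in SHEP and 0.372 TPM in SKNAS, was outside this test.

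Over the hours of the experiment the autophagy transcripts of SHEP MYC-ON did not stay at 1 level. The linear trend over CT, in log2(TPM + 1) per 24 h, was upward for 9 members and downward for 7 in SHEP MYC-ON (25.7% and 20.0%, against 19.9% and 36.6% of all genes). In SHEP MYC-OFF it was upward for none and downward for 9 (25.7%, against 5.59% upward and 10.0% downward of all genes), and of these 9 none passed in both series alone. Time in culture, time since 4OHT and time since dexamethasone run together and cannot be told apart. The difference in trend between the conditions was higher in MYC-ON for 13 members and lower for 2 (37.1% and 5.71%, against 16.1% and 26.8% of all genes).

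All 4 cargo receptors rose over time in SHEP MYC-ON, and for all 4 the trend differed from that in MYC-OFF. NBR1 rose from 23.3 ± 1.46 TPM (SD, n = 8) at CT24 to CT36 to 38.7 ± 2.21 (n = 8) at CT64 to CT76, a trend of 0.41 ± 0.03 per 24 h (adjusted p = 1.6e-10). In MYC-OFF NBR1 had 42.03 ± 4.43 and 43.1 ± 2.62 TPM in the same windows. The gap between MYC-ON and MYC-OFF narrowed from -0.83 to -0.12 on the log2 scale in series 1 and from -0.82 to -0.17 in series 2.

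OPTN rose from 66.9 ± 4.69 to 96.5 ± 10.5 TPM in MYC-ON (0.28 ± 0.04 per 24 h, adjusted p = 8.1e-07), with 130 ± 7.20 and 125 ± 5.75 TPM in MYC-OFF. SQSTM1, already above MYC-OFF, rose from 670 ± 63.4 to 824 ± 76.98 TPM (0.16 ± 0.04 per 24 h, adjusted p = 0.00094). TAX1BP1 rose from 79.0 ± 7.01 to 106 ± 23.9 TPM (0.21 ± 0.06 per 24 h, adjusted p = 0.0028), but the series disagreed: its trend was 0.39 in series 2 alone and 0.031 in series 1 alone (adjusted p = 0.51). The difference in trend from MYC-OFF held in each series alone for NBR1 and OPTN and not for SQSTM1 and TAX1BP1.

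WIPI1 had the steepest trend of all members, from 25.6 ± 3.35 TPM early to 44.5 ± 6.91 late in MYC-ON (0.46 ± 0.05 per 24 h, adjusted p = 7.7e-08). Over the same windows WIPI1 went from 57.2 ± 3.61 to 49.2 ± 2.19 TPM in MYC-OFF (-0.11 ± 0.03 per 24 h, adjusted p = 0.0087). Its gap narrowed from -1.08 to -0.087 in series 1 and from -1.20 to -0.23 in series 2, and the difference in trend was 0.57 ± 0.06 (adjusted p = 1.7e-10). ULK1, by contrast, stayed apart: 24.7 ± 2.83 and 20.0 ± 1.21 TPM in MYC-OFF, and 11.9 ± 1.60 and 11.1 ± 2.48 TPM in MYC-ON.

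**Figure D4:**
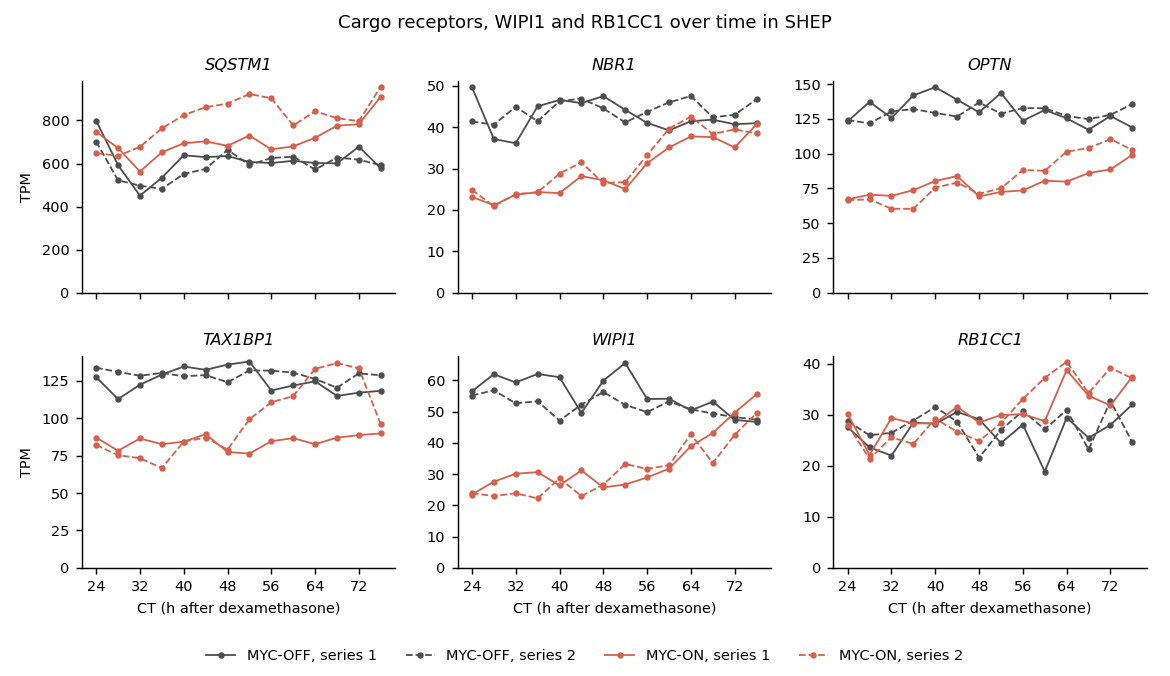
TPM (vertical axes, from 0) against CT in hours after dexamethasone (horizontal axes) for the 4 cargo receptors, WIPI1 and RB1CC1 in SHEP, MYC-OFF in grey and MYC-ON in red, series 1 solid and series 2 dashed. WIPI1 and NBR1 of MYC-ON climb toward MYC-OFF in both series, and TAX1BP1 climbs in series 2 only.

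The remaining upward trends in SHEP MYC-ON were those of RB1CC1 (0.26 ± 0.04), ATG12 (0.22 ± 0.04), ATG7 (0.20 ± 0.05) and GABARAPL1 (0.19 ± 0.05). Downward trends were found for AMBRA1 (-0.40 ± 0.07, adjusted p = 2.1e-05), which went from 20.0 ± 2.64 to 11.6 ± 2.49 TPM, and for ATG4D (-0.34 ± 0.06, adjusted p = 2.1e-05), which went from 22.1 ± 3.01 to 14.8 ± 3.14 TPM. ATG9A (-0.24 ± 0.04), ATG4B (-0.18 ± 0.04), BECN1 (-0.17 ± 0.03), ATG16L1 (-0.11 ± 0.03) and ATG13 (-0.10 ± 0.04) declined more slowly. In each series alone, 6 of the 9 upward trends (WIPI1, NBR1, OPTN, RB1CC1, ATG12 and SQSTM1) and 4 of the 7 downward ones (AMBRA1, ATG4D, ATG9A and ATG4B) passed the test.

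**Figure D5:**
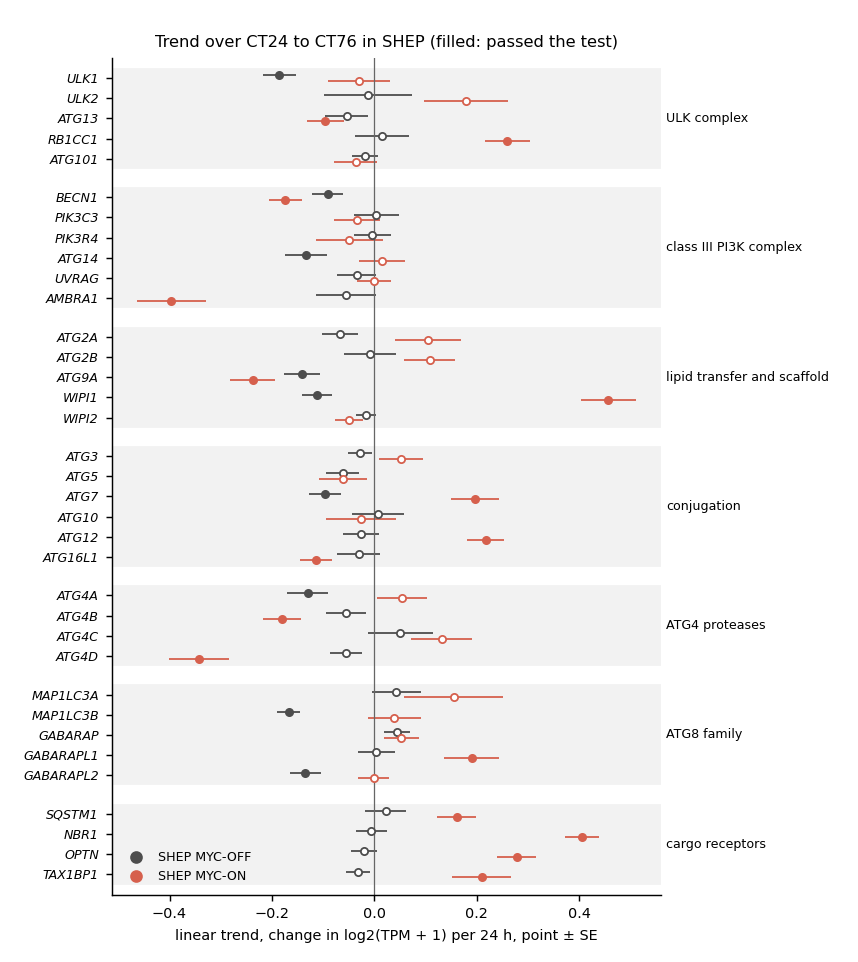
Linear trend over CT24 to CT76 in SHEP, in log2(TPM + 1) per 24 h (horizontal axis, point ± SE), for each member in MYC-OFF (grey) and MYC-ON (red), filled where the trend passed the test. Filled red points of WIPI1 and the 4 cargo receptors lie right of 0, and filled grey points all lie left of it.

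In SKNAS no member had a trend that passed the test in either condition, where limma called 0 genes in MYC-OFF and 4 of 13886 (0.0288%) in MYC-ON. A 24 h rhythm was called for no member in any group. The cosinor called 9 genes (0.0627%) in MYC-OFF and 2 (0.0139%) in MYC-ON of SHEP, and 0 in both SKNAS groups. At an unadjusted p under 0.05 stood 6 members in MYC-OFF of SHEP (ATG2A, ATG7, SQSTM1, ATG4D, ATG4C and ATG9A), 2 in MYC-ON (ATG4B and NBR1) and none in SKNAS, against 9.84%, 8.73%, 0.432% and 0.331% of all genes.

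Among wider lists of pathway genes, the other machinery and the other receptors held more lower than higher calls in both lines, also after rescaling. With the covariate they still did, but their lower shares in SKNAS came nearer that of all genes. Upstream signalling in SHEP was split much as all genes were. Of 27 other genes of the machinery, 23 were tested in SHEP, with 17 lower, 1 higher and a median of -0.42 on the log2 scale, and 22 in SKNAS, with 12 lower, 2 higher and a median of -0.76. The lower calls are 73.9% and 54.5% of those tested, against 38.9% and 34.4% of all genes. With the covariate the SKNAS counts were 7 lower and 5 higher (31.8% and 22.7%, against 26.1% and 28.3% of all genes). Lower 1.5-fold in both lines were PLEKHM1 (-0.73 ± 0.05 in SHEP and -0.93 ± 0.27 in SKNAS), which tethers autophagosomes to lysosomes, TECPR2 (-0.85 ± 0.07 and -1.02 ± 0.31), TP53INP2 (-1.36 ± 0.05 and -0.85 ± 0.23), which binds ATG8 proteins, and ZFYVE1 (-0.82 ± 0.05 and -1.07 ± 0.17), which encodes the omegasome protein DFCP1.

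Of 18 other receptors, 13 were lower and 1 higher in SHEP (median -0.42), and 10 lower and 2 higher in SKNAS (median -0.63), the lower ones being 72.2% and 55.6%. With the covariate the SKNAS counts were 6 lower and 2 higher (33.3% and 11.1%, against 26.1% and 28.3% of all genes). The mitophagy receptor BNIP3L (-1.20 ± 0.06 and -1.34 ± 0.22), CALCOCO1 (-1.05 ± 0.07 and -1.77 ± 0.28) and RETREG1 (-0.77 ± 0.06 and -1.46 ± 0.12), receptors for the endoplasmic reticulum, were lower 1.5-fold in both lines. Of 34 upstream signalling genes, 33 were tested in SHEP, with 12 higher (36.4%) and 15 lower (45.5%; median -0.12), and 32 in SKNAS, with 1 higher and 14 lower (median -0.33), which became 8 and 8 with the covariate. MLST8, a subunit of the mTOR complexes, was higher in both (0.78 ± 0.03 and 1.18 ± 0.14), and the arginine sensor CASTOR1 (-0.80 ± 0.07 and -1.13 ± 0.14) and the transcription factor MITF (-0.93 ± 0.06 and -0.84 ± 0.23) were lower in both.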

How the data were processed

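Polyadenylated RNA had been sequenced by the authors as paired-end reads, and low-quality reads and adaptors had been removed before quantification with Salmon 1.3.0 against Gencode transcripts (GRCh38) and summing to genes with Tximport. The deposited values are TPM, with 1 column for each of 83 libraries, and all columns carried a sample name. TPM keep no read depth, so no counting interval can be given. Where a symbol was listed more than once, its highest entry by mean was taken.

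A count model, as the study used, needs counts, so limma 3.58.1 (R 4.3.3) was fitted to log2(TPM + 1) instead, with time points as replicates and CT as a factor, for genes with a mean of at least 1 TPM in the line. Trends and 24 h cosinor terms were fitted within each group, with an intercept per SHEP series. Scripts were tested on simulated data. The SHEP series numbers mark replicate experiments, and their deviations correlated between conditions across genes (r = 0.489), so they pair the samples. Members and gene lists were chosen with earlier results of these data known. Values were given in full for members changed 1.5-fold in either line, the ATG8 family and the cargo receptors. Genes of the wider lists were named where they changed 1.5-fold the same way in both lines, and other members and genes by what they add to a role, chosen after their values were seen. Alternatives were another pseudocount (0.1 TPM), no filter, rescaling by median of ratios, the library median as a covariate, subsets of libraries and single series. The fit on SKNAS libraries with a median of at least 3.8 and CT as a linear term was added after seeing the data.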

Additional observations from a re-analysis of the deposited data

Results flagged for a closer look

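The MYC effect differed between SKNAS and SHEP (interaction, limma adjusted p of at most 0.05) for 18 members, given as the effect in SKNAS minus that in SHEP on the log2 scale. It was higher for MAP1LC3A (0.62) and ATG14 (0.42). It was lower for the cargo receptors SQSTM1 (-0.73), OPTN (-0.51), NBR1 (-0.49) and TAX1BP1 (-0.46), for ULK2 (-0.63), RB1CC1 (-0.58) and ATG13 (-0.52) of the ULK complex, and for ATG2B (-1.12), ATG9A (-0.40) and WIPI2 (-0.29). It was also lower for ATG16L1 (-0.55), ATG10 (-0.47) and ATG7 (-0.44), for ATG4C (-0.58) and ATG4A (-0.52), and for GABARAPL2 (-0.30). The median over all genes was -0.24 in this comparison. With the library median as a covariate 9 of the 18 were called the same way (2 higher, 7 lower), and ULK2, RB1CC1, ATG16L1 and ATG9A lay above 0. After rescaling, 8 members were higher and 7 lower (23.5% and 20.6%, against 24.5% and 22.9% of all genes).

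In SHEP the linear trend over CT differed between MYC-ON and MYC-OFF for 15 members, given as MYC-ON minus MYC-OFF in log2 units per 24 h. It was higher for WIPI1 (0.57), NBR1 (0.41), OPTN (0.30), ATG7 (0.29), RB1CC1 (0.24), ATG12 (0.24), TAX1BP1 (0.24), MAP1LC3B (0.21), GABARAPL1 (0.19), ATG4A (0.18), ATG14 (0.15), SQSTM1 (0.14) and GABARAPL2 (0.13), and lower for AMBRA1 (-0.34) and ATG4D (-0.29). For MAP1LC3B, GABARAPL2, ATG4A and ATG14 the trend in MYC-ON itself was not called and that in MYC-OFF was downward.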

How the results depend on the processing

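In SHEP the counts of 9 higher and 19 lower members stayed within 1.5 times under every alternative, and 6 higher and 15 lower members were called under all of them. The replicate block gave the same 9 and 19, and it was not fitted for SKNAS, which has 1 series. In SKNAS the counts (1 higher, 17 lower) became 6 and 9 after rescaling, 6 higher with the library median as a covariate, 2 higher with no filter, 3 higher from CT24 to CT48, and 0 and 1 from CT52 on. With libraries of a median of at least 3.8 they were 0 and 0 (4 members at an unadjusted p under 0.05), a fit with 1 residual degree of freedom, and 3 higher with CT as a linear term. The line difference of the MYC effect (2 higher, 16 lower) became 8 and 7 after rescaling, 4 and 7 with the covariate, and 5 higher with no filter; without 1 SHEP series it was 1 higher and 6 to 7 lower. Of the 9 downward trends in SHEP MYC-OFF, 5 were called with the covariate and 0 to 4 in single series. In SHEP MYC-ON, 14 trends were upward after rescaling, and 4 (series 2 alone) to 10 (series 1 alone) were downward. The 13 and 2 differences in trend became 10 higher in series 2 alone, 8 higher in series 1 alone and 1 lower in either.

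Among values called as deposited or under the alternative, signs turned in SKNAS for ATG14 (0.25), RB1CC1 (0.39) and UVRAG (0.31) with the covariate, and for BECN1 (0.082), GABARAPL2 (0.026) and PIK3C3 (0.12) after rescaling. With the covariate they also turned for the line difference of the MYC effect of ATG16L1 (0.039), ATG9A (0.042), RB1CC1 (0.058), ULK2 (0.034) and UVRAG (0.41) and for the MYC-OFF line difference of ATG2B (0.24). The SHEP MYC-ON trends of ATG3 (-0.10 and 0.20) and MAP1LC3B (-0.15 and 0.23) were negative in series 1 alone and positive in series 2 alone. The causes were not tested. TPM keep no depth, so the precision of low members such as ULK2 in SHEP is unknown.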
